A study of Homo sapiens with 18 samples.

Results

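The genes described here are the numbered zinc finger (ZNF) genes of human chromosome 19. They were taken from the gene count table as the protein-coding genes of chromosome 19 in GENCODE release 29 whose symbol is ZNF followed by a number and at most 1 letter. The rule found 246 genes among 58721 rows of the table, and among 1472 protein-coding rows of chromosome 19. The rule used names and positions only, and no expression value. The cells were A375, an established line of human melanoma, and their mRNA was sequenced. There were 6 groups of 3 libraries. The TADA2B knockout groups carried guide 1 or guide 2 against TADA2B, each with and without overexpression of SOX10. The control groups carried a guide against GFP, also with and without overexpression of SOX10. The labels do not say whether a knockout group was 1 clone or a pool, or whether replicates came from separate cultures, so p-values measure the spread between these libraries, which may be technical.

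Most zinc finger proteins of chromosome 19 carry a KRAB domain followed by a row of C2H2 fingers. The fingers read DNA, in many cases that of transposable elements, and the KRAB domain recruits TRIM28, which brings the histone methyltransferase SETDB1 and HP1 proteins to form H3K9me3 heterochromatin. The genes arose by repeated tandem duplication and stand in clusters. TADA2B is a subunit of SAGA, a coactivator complex that acetylates histones, and SOX10 is a DNA-binding regulator of neural crest cells and melanocytes.

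The 246 genes formed 10 sub-clusters of at least 3 genes when a gap of more than 1 Mb between neighbours was taken as a border, and 8 genes stood alone. Sub-cluster 4 (hg38, chr19:19668796-24129961) held 37 genes, sub-cluster 9 (chr19:51571298-53580269) held 39 and sub-cluster 10 (chr19:55476332-58481230), at the end of the long arm, held 59. The core of the KRAB A-box was found in the translated coding sequence of 211 genes, against 117 of 263 ZNF genes of other chromosomes. The median number of C2H2 motifs was 12 per protein, with a highest value of 36, against 9 in the ZNF genes of other chromosomes. Median transcript GC content was 44.1%, close to the 45.6% of the ZNF genes of other chromosomes. It was 49.7% in all protein-coding genes and 60.0% in the other protein-coding genes of chromosome 19. The 35 genes without a KRAB core had a median GC content of 61.5%, against 43.7% in the genes with one.

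Promoter sequences from RefSeq (GRCh38.p14, 250 bases before to 50 after the start site) were matched for 215 of the 246 genes. The letters CCGGAAG, the core of binding sites for ETS factors, stood on either strand in 98 of them, which is 45.6%. The share was 28.3% among ZNF promoters of other chromosomes and 13.4% among other protein-coding promoters of chromosome 19. It was 12.8% among all protein-coding promoters and 10.2% among all 34796 promoters of the table. In sub-cluster 4 they stood in 21 of 29 promoters, and 19 matches lay 17 to 24 bases before the start site. The letters stood in 20 of 32 promoters of sub-cluster 9 and 33 of 54 of sub-cluster 10, but in 2 of 24 of sub-cluster 3. The 100 bases before the start site are given for 4 genes of sub-cluster 4, to show the sequence they share, and for ZNF274 of sub-cluster 10, where the same letters stand in another context. Capitals mark the match, read here as CTTCCGG on the strand of the gene.
ZNF91 (chr19:23395472-23395571, minus strand): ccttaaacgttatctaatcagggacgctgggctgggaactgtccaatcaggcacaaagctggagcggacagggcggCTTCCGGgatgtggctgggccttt
ZNF43 (chr19:21836183-21836282, minus strand): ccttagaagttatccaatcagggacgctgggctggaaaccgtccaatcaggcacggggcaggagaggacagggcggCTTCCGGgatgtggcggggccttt
ZNF681 (chr19:23758892-23758991, minus strand): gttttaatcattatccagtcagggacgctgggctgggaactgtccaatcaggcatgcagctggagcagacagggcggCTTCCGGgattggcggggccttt
ZNF723 (chr19:22832191-22832290, plus strand): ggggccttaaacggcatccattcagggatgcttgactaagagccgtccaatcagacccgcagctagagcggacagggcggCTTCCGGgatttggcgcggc
ZNF274 (chr19:58182961-58183060, plus strand): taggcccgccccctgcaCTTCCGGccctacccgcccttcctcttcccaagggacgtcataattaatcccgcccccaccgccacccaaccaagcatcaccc
In the first 4 promoters the match lay 24, 24, 23 and 20 bases before the start site. The run gacagggcggCTTCCGGgat of 20 bases, the longest around the match that these 4 promoters share, stood in 6 genes, all of sub-cluster 4, and in no other protein-coding promoter. A shorter run from the same place, gggcggCTTCCGG, of 13 bases, stood in 11 genes of sub-cluster 4 and in 8 protein-coding promoters outside the 246 genes. Both runs were read off promoters picked for display, and both were searched on the strand of the gene only. SOX factors bind around the letters ACAAT. These stood in 20.5% of the member promoters, 16.8% of other protein-coding promoters of chromosome 19, 21.5% of protein-coding promoters and 27.4% of all promoters. Other short letter runs were searched too. Among these, CCAAT stood in 53.5% of member promoters against 34.7% of protein-coding promoters, and TATAAA in 1.86% against 9.52%. A match is a description of the sequence and does not show that a factor binds there.

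All libraries held 58573910 to 79874237 counts, and a level is given as CPM, the count scaled to a common library size with TMM factors. Of the 246 genes, 243 passed the filter on low counts and were tested. The other 3, ZNF177, ZNF541 and ZNF667, had 0 to 4 counts in each library. The mean level over all libraries was under 1 CPM for 22 genes, 1 to 10 CPM for 111 and over 10 CPM for 113. On the scale of CPM per kilobase of transcript, the highest genes were ZNF146 at 57.1, ZNF317 at 17.0, ZNF45 at 15.1, ZNF121 at 13.2, ZNF43 at 12.0 and ZNF561 at 11.5. ZNF146 encodes a protein made almost only of fingers, with no KRAB core found. All 246 genes together summed to 3744 CPM with guide 1 and SOX10, 4077 CPM with guide 2 and SOX10, 3271 CPM with guide 1, 3427 CPM with guide 2, 3770 CPM in control cells with SOX10 and 3597 CPM in control cells.

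TADA2B itself averaged 26.0 ± 0.402 and 28.8 ± 1.37 CPM in the lines of guides 1 and 2, against 32.5 ± 0.318 CPM in control cells (SD, n = 3). A guide makes small insertions or deletions, so the transcript need not fall with the protein. SOX10 averaged 83.6 and 43.4 CPM in the lines of guides 1 and 2, against 354 CPM in control cells. With overexpression SOX10 stood at 291 and 246 CPM in the knockout lines and at 452 CPM in control cells. Of the melanocyte markers, SOX10, MITF and S100B were present, PMEL and MLANA lay at 0.412 to 1.55 CPM and TYR at or under 0.027 CPM in the group means. In the knockout 4 of 6 tested melanocyte markers were lower and 2, MITF and PMEL, were higher. With SOX10 in knockout cells 4 were higher and 1, MITF, was lower. MITF averaged 84.3 and 92.1 CPM in the lines of guides 1 and 2, against 39.7 CPM in control cells. With SOX10 it averaged 64.2 and 56.3 CPM in these lines and 85.5 CPM in control cells. DCT, a melanin enzyme gene, averaged 22.8 CPM with guide 1 and SOX10 against 0.0566 CPM with guide 1, 6.59 CPM with guide 2 and SOX10 against 0.0793 CPM with guide 2, and 156 CPM in control cells with SOX10 against 1.012 CPM in control cells. The summed level of 5 epithelial markers was 305 to 351 CPM in the knockout libraries against 171 to 172.5 CPM in control libraries, led by KRT18 and KRT8. CDH1 was at 0 in control cells, averaged only 0.036 and 0.026 CPM in the lines of guides 1 and 2, and was not tested. The summed level of 5 fibroblast markers was 35.7 to 42.0 CPM against 6.59 to 8.77 CPM, with LUM highest in the knockout lines and PDGFRB highest in control cells. COL1A2, which was not tested, averaged 0.040 and 0.047 CPM in the lines of guides 1 and 2. In control cells COL1A2 averaged 0.094 CPM and lay at or under 0.178 CPM in each library. With SOX10 in the knockout lines, 4 of 4 tested epithelial markers were lower, at a sum of 232 to 280 CPM against 305 to 351 CPM without. The fibroblast sum was 46.1 to 54.4 CPM against 35.7 to 42.0 CPM, but the 4 tested markers were split. LUM and DCN were higher, with LUM at 37.3 and 43.4 CPM against 21.9 and 23.3 CPM for guides 1 and 2. COL1A1 and PDGFRB were lower, with COL1A1 at 3.07 and 3.18 CPM against 8.13 and 9.10 CPM. LYZ, a leukocyte marker, averaged 18.8 and 20.8 CPM with SOX10 in the lines of guides 1 and 2, against 8.67 and 5.50 CPM without. In bulk RNA, fewer cells of a type and less RNA per cell cannot be told apart, and the part of these markers in the results below was not tested. Guide 2 replicate 2 stood apart from its group, with the genes taking 0.378% of its counts against 0.350% and 0.345% in the other 2 libraries.

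SOX10 overexpression in TADA2B knockout cells raised most of these genes by small amounts. Averaged over the guides, 184 of 243 genes rose and 9 fell, with a median log2 fold change of 0.29 (edgeR quasi-likelihood test, Benjamini-Hochberg adjusted p under 0.05). Among all 21060 genes tested, 56.2% were called, 28.1% higher and 28.1% lower, with a median of 0.00. The ZNF genes of other chromosomes had 121 of 242 higher and 39 lower, with a median of 0.11. Other chromosome 19 genes inside the sub-clusters had 25 of 87 higher and 32 lower, and those outside had 129 of 713 higher and 304 lower. The median fold of the genes that rose was 1.26, and 35 of them rose at least 1.5-fold and 10 at least 2-fold. The lines gave 144 higher and 6 lower genes with guide 1, against 22% and 21.7% of all genes. With guide 2 there were 164 higher and 8 lower, against 24.6% and 24% of all genes, and 132 genes were higher with each guide, 4 lower with each and 0 opposite. This overlap of the guides was counted for these genes only, so it is not read as particular to them. With a correction for GC content, 149 genes rose and 13 fell, and the median was 0.20. The shares of all genes above are without this correction.

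**Figure D1:**
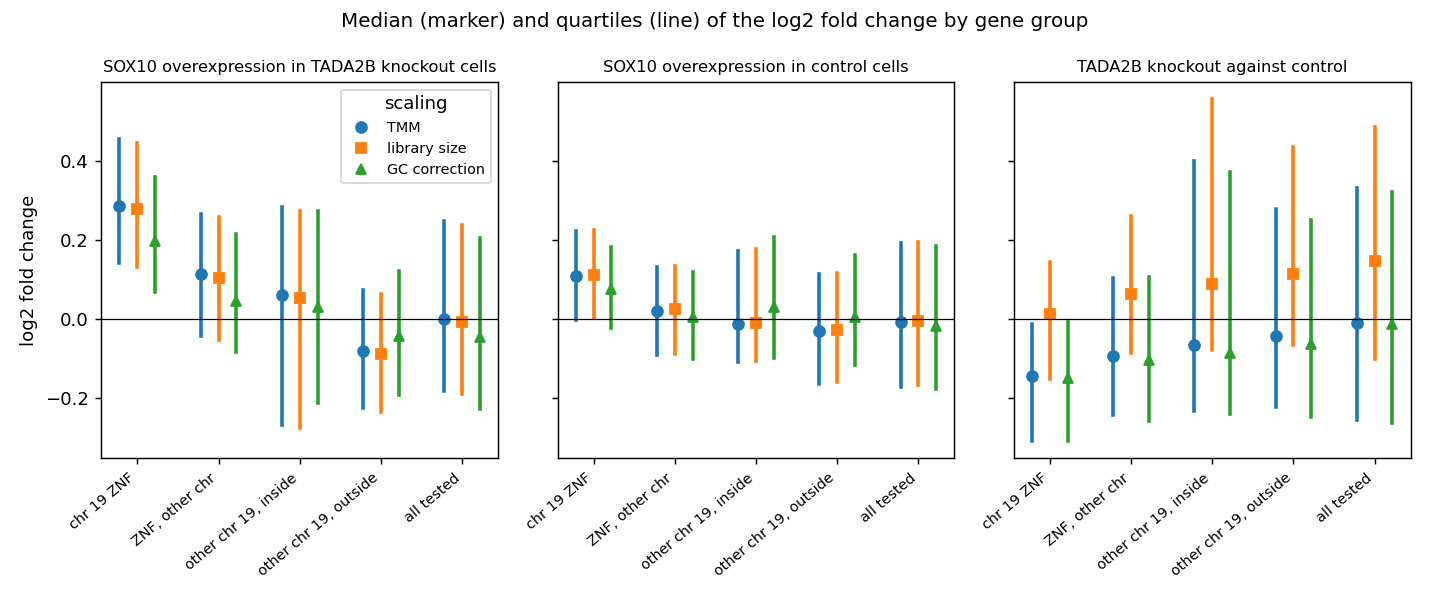
Median (marker) and quartiles (line) of the log2 fold change of 5 gene groups, for SOX10 overexpression in knockout cells, SOX10 overexpression in control cells and knockout against control, under 3 scalings. The chromosome 19 ZNF genes have a median of 0.29 in knockout cells with SOX10 under TMM scaling and 0.20 with the GC correction, and in the knockout comparison their median is −0.14 with TMM and 0.01 with library-size scaling.

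ZNF69, of sub-cluster 3, had 8.81, 9.71 and 9.00 CPM with guide 1 and SOX10, against 4.07, 4.49 and 3.96 CPM with guide 1 alone. With guide 2 it had 11.5, 11.0 and 11.8 CPM with SOX10, against 3.81, 3.89 and 3.10 CPM without. No library with SOX10 overlapped one without, and the log2 fold change over the guides was 1.41 (SE 0.059, adjusted p = 2.96e-23). ZNF525, of sub-cluster 9, had 13.4, 13.2 and 12.6 CPM with guide 1 and SOX10, against 7.76, 8.31 and 7.70 CPM with guide 1 alone. With guide 2 it had 15.6, 15.9 and 14.4 CPM with SOX10 and 7.18, 8.50 and 7.10 CPM without, and the log2 fold change over the guides was 0.87 (adjusted p = 1.47e-18). The groups did not overlap for either guide. ZNF415, at a low level in sub-cluster 9, had 1.49, 1.79 and 1.75 CPM with guide 1 and SOX10, against 0.458, 0.803 and 0.665 CPM with guide 1 alone. With guide 2 it had 1.68, 1.49 and 1.32 CPM with SOX10 and 0.563, 0.457 and 0.433 CPM without (a 2.84-fold rise over the guides, adjusted p = 1.94e-12), again with no overlap.

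Of 12 genes chosen for a known role, 10 rose with SOX10 in knockout cells, ZNF382 did not pass and ZNF667 was not tested. Among all 243 tested members 75.7% rose, so this count says nothing particular of the 12. ZNF93, which represses L1 elements, averaged 24.3 and 25.9 CPM in the SOX10 groups of guides 1 and 2, against 15.9 and 16.2 CPM without SOX10 (log2 fold change 0.65, adjusted p = 3.52e-18). ZNF91, which represses SVA elements, averaged 57.9 and 63.0 CPM with SOX10, against 49.2 and 55.1 CPM without (0.21, adjusted p = 2.23e-08). ZNF274, which brings SETDB1 to the 3' ends of ZNF genes, averaged 26.9 and 29.7 CPM with SOX10, against 19.6 and 19.5 CPM without (0.53, adjusted p = 1.02e-16). For each guide, the SOX10 libraries of these 3 genes lay above all libraries without SOX10. ZNF331, imprinted in some tissues, had a log2 fold change of 0.22, ZNF350, a partner of BRCA1, 0.42, ZNF224, a partner of WT1, 0.21 and ZNF677 0.50. ZNF582 had 0.70, ZNF154 0.55 and ZNF808 0.45, and all 7 passed. ZNF382, at 0.29 and 0.26 CPM with SOX10, had a log2 fold change of 0.52 that did not pass (adjusted p = 0.098).

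**Figure D2:**
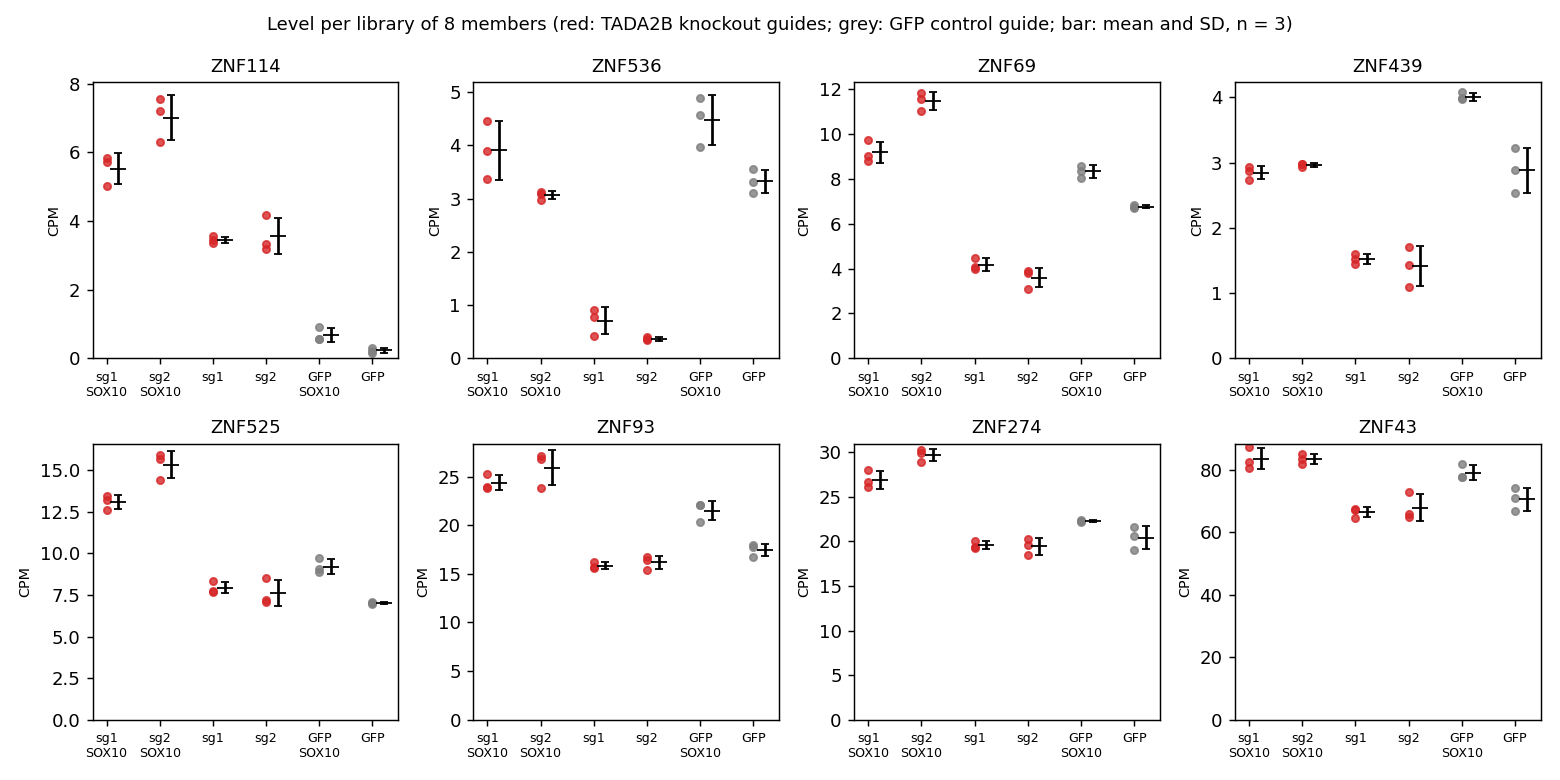
CPM of 8 genes in every library (points), with the mean and SD of each group of 3 (bars). In knockout cells (red) ZNF69 lies at 8.81 to 11.8 CPM with SOX10 and at 3.10 to 4.49 CPM without it, while in control cells (grey) ZNF114 lies under 1 CPM in every library.

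The SOX10 response of knockout cells was counted by sub-cluster. In sub-cluster 4, 35 of 37 genes rose and 0 fell (median 0.37), and in sub-cluster 9, 35 of 39 rose and 0 fell (median 0.41). Sub-cluster 3 had 20 of 25 higher, sub-cluster 6 had 21 of 26, and sub-cluster 8 had 20 of 24, with 0 lower in each. In sub-cluster 10, 32 of 58 rose and 8 fell (median 0.16). No test compared sub-clusters with each other. Of the 9 genes that fell, 8 lay in sub-cluster 10: ZNF524, ZNF784, ZNF444, ZNF628, ZNF446, ZNF787, ZNF324B and ZNF579, with ZNF574 standing alone. In sub-cluster 10, 30 of 44 genes with a KRAB core rose and 2 fell (median 0.22). Of its 14 tested genes without a core, 2 rose and 6 fell (median −0.14). Sub-cluster 4 had 2 tested genes without a core and sub-cluster 9 had 0. The parts of position and of the KRAB core in these counts were not tested. ZNF787 had 18.1, 20.6 and 21.7 CPM with guide 1 and SOX10, against 23.7, 22.5 and 21.98 CPM with guide 1, and 19.2, 19.8 and 21.1 CPM with guide 2 and SOX10, against 23.3, 22.2 and 24.9 CPM with guide 2. Its libraries with SOX10 lay below those without for each guide, by a log2 fold change of −0.20 (adjusted p = 3.28e-05).

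**Figure D3:**
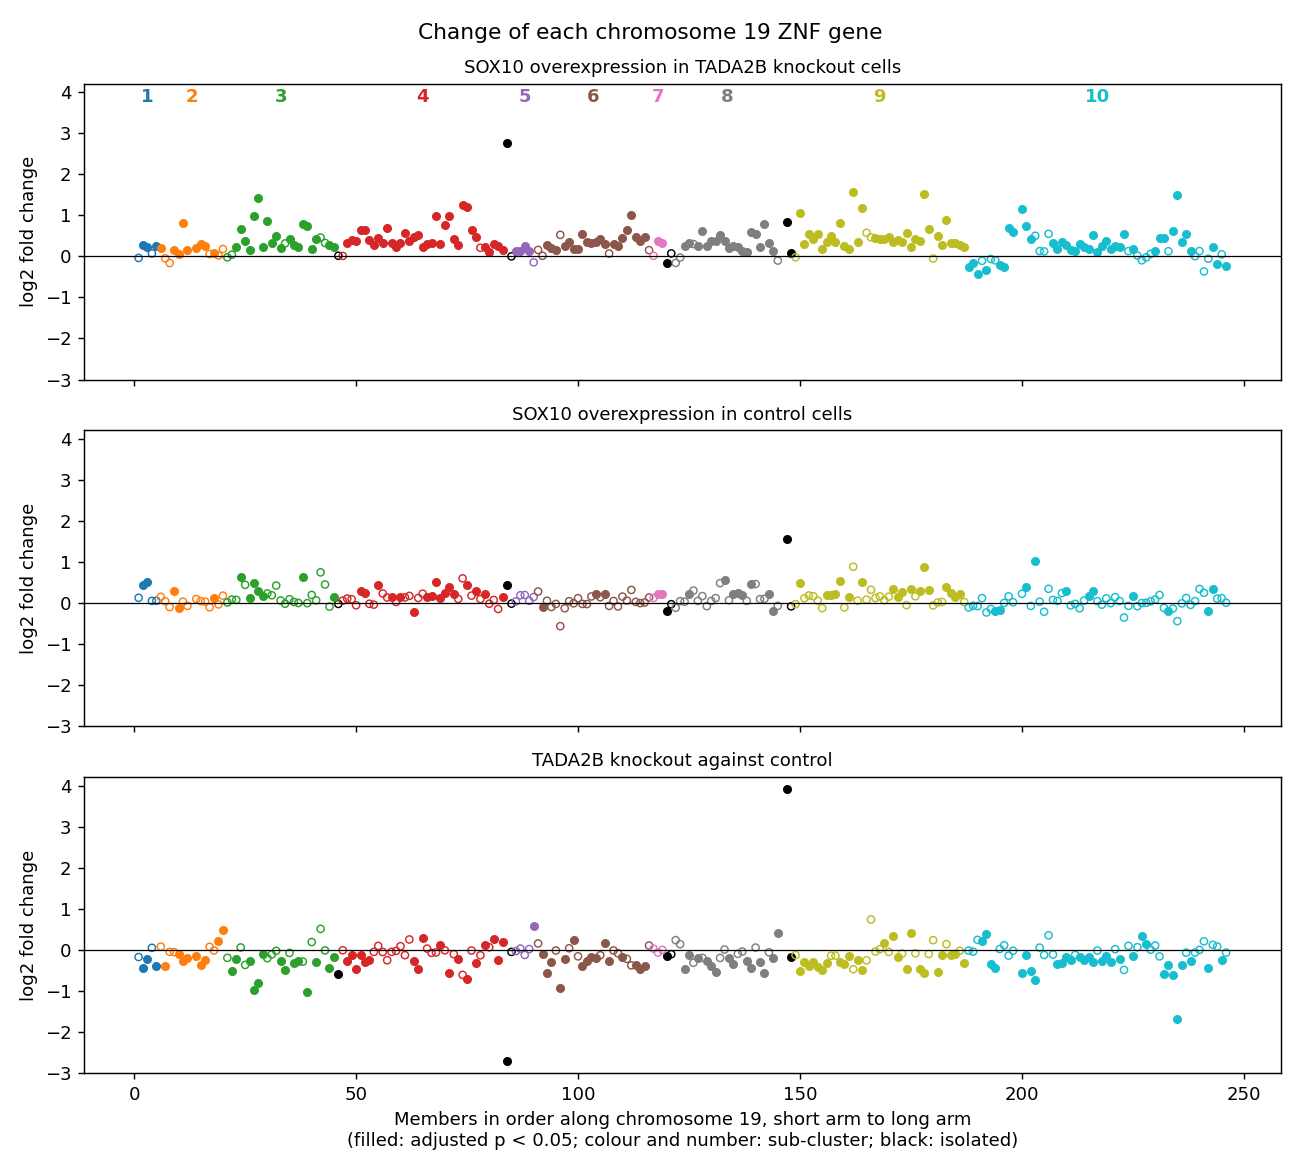
Log2 fold change of each tested gene in order along chromosome 19, for 3 comparisons, with filled points for adjusted p under 0.05 and the number and colour of the sub-cluster. In knockout cells with SOX10, sub-clusters 4 and 9 lie almost wholly above 0, and the 8 genes of sub-cluster 10 that fell stand near its start and its end.

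**Figure D4:**
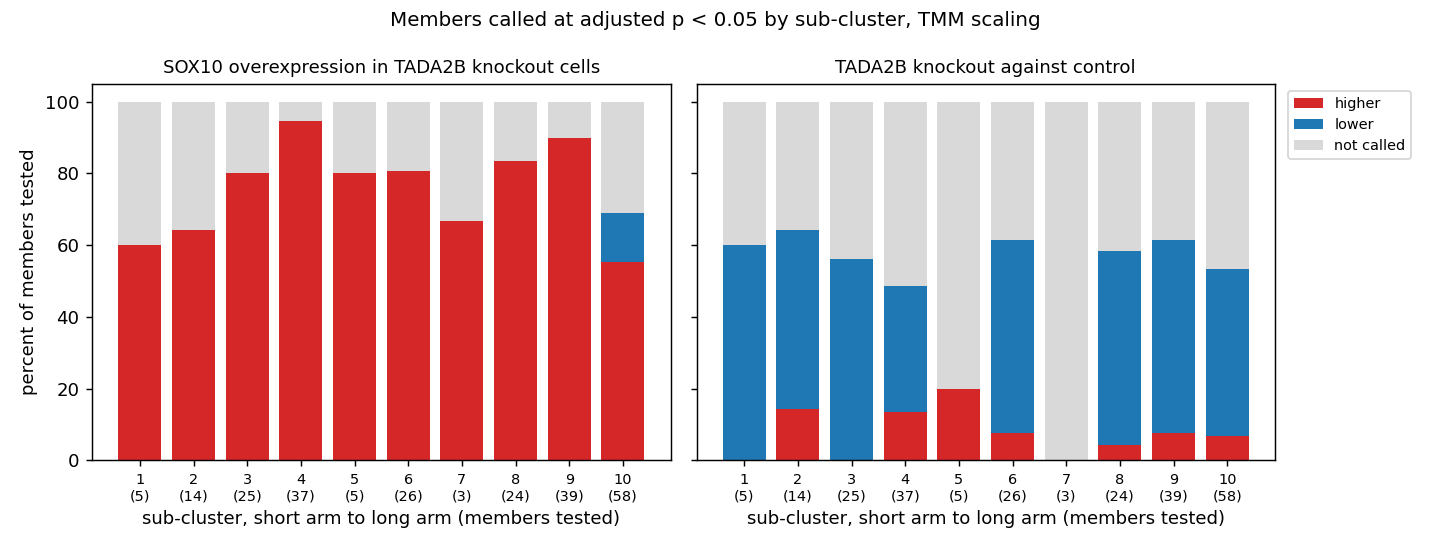
Percent of tested genes called higher, lower or not called in each sub-cluster, with the number tested in parentheses, for SOX10 overexpression in knockout cells and for knockout against control. Genes called lower with SOX10 appear in sub-cluster 10 and in no other sub-cluster, whereas the knockout comparison has lower genes in 8 of 10 sub-clusters.

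The SOX10 response was also counted for genes with and without a KRAB core, with no test between them. In knockout cells 173 of 209 genes with a core rose and 2 fell (median log2 fold change 0.31), against 11 of 34 higher and 7 lower among genes without one (median −0.02). GC content moved with this feature, so the genes were also divided at their median GC content, a division chosen after the values were seen. Among genes over the median, 66 of 93 with a core rose and 2 fell, against 6 of 26 higher and 7 lower without a core. With the GC correction these were 49 higher and 6 lower of 93 with a core, and 4 higher and 5 lower of 26 without. At or under the median GC content only 8 genes lacked a core, of which 5 rose. The part of GC content in this difference was not tested, nor was that of the promoter letters. Of the genes whose promoter held the ETS letters 74 of 97 rose, against 82 of 115 of those whose promoter did not.

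In control cells SOX10 overexpression raised fewer of the genes. Of 243, 65 rose and 9 fell, with a median log2 fold change of 0.11, against 34.4% of all genes tested called, 17.3% higher and 17.2% lower. Without 1 library of the SOX10 control group, replicate 1, 5 genes fell in place of 9. ZNF114 had 0.573, 0.577 and 0.927 CPM in control cells with SOX10, against 0.313, 0.222 and 0.154 CPM in control cells, a log2 fold change of 1.57 (SE 0.26, adjusted p = 3.02e-06). ZNF835 had 0.532, 0.779 and 0.868 CPM with SOX10, against 0.358, 0.371 and 0.338 CPM without (1.02, adjusted p = 0.00559). In both genes the SOX10 libraries lay above all control libraries. ZNF563 averaged 2.50 CPM with SOX10 and 1.60 CPM without, and ZNF738, which fell, averaged 18.0 CPM with SOX10 and 20.9 CPM without. The comparisons in control and in knockout cells share no library, and 64 genes were higher in both, 2 lower in both, and 3 lower in control and higher in knockout cells. That overlap was not set against the overlap among all genes. SOX10 itself changed by a log2 of 2.15 in knockout cells and of 0.35 in control cells, and the part of that difference in the results was not tested.

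The SOX10 effect was larger in knockout than in control cells for many of the genes. This interaction, the SOX10 effect in knockout cells and the knockout effect without SOX10 all use the knockout libraries without SOX10. They are therefore not independent results. The interaction passed with a positive sign for 93 of 243 genes and with a negative sign for 4 (median 0.17), against 18.1% and 15.1% of all genes tested, or 33.3% in all. With the GC correction 73 were positive and 8 negative, while the shares of all genes given are without it. In sub-cluster 4, 25 of 37 genes passed with a positive sign and 0 with a negative one, and in sub-cluster 6, 13 of 26 and 0. ZNF69 had an interaction of 1.11 (SE 0.10, adjusted p = 7.02e-12), from a log2 fold change of 1.41 in knockout and 0.30 in control cells. ZNF274 had 0.41 (adjusted p = 9.94e-07), from 0.53 in knockout and 0.12 in control cells, where it did not pass. ZNF91 had −0.01 (SE 0.050, adjusted p = 0.94), from 0.21 in knockout and 0.22 in control cells.

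Whether knockout of TADA2B without SOX10 lowered or raised more of the genes depended on the scaling. With TMM scaling 116 of 243 genes fell and 19 rose, with a median log2 fold change of −0.14, against 58.1% of all genes tested called, 29.5% lower and 28.6% higher, whose median was −0.01. With library-size scaling, which moved the median of all genes to 0.15, 53 genes fell and 59 rose and the median was 0.01, against 16.8% lower and 43.3% higher of all genes. Under both scalings 53 genes fell and 19 rose. The ZNF genes of other chromosomes had 108 of 242 lower and 47 higher with TMM scaling. Without control replicate 3, 12 genes rose in place of 19. In sub-cluster 3, 14 of 25 genes fell and 0 rose with TMM scaling, against 7 lower and 2 higher on library size. In sub-cluster 4, 13 of 37 fell and 5 rose with TMM, against 4 lower and 14 higher on library size.

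ZNF536, which stands alone at chr19:30228290-30713538 and acts as a repressor of neuronal differentiation genes, changed most among those that fell. It had 0.916, 0.776 and 0.427 CPM with guide 1 and 0.407, 0.339 and 0.361 CPM with guide 2, against 3.55, 3.32 and 3.10 CPM in control cells. The groups were far apart, with a log2 fold change of −2.70 (SE 0.14, adjusted p = 5.07e-20). With SOX10 it had 4.46, 3.89 and 3.37 CPM in guide 1 and 3.12, 3.09 and 2.98 CPM in guide 2, against 4.90, 4.58 and 3.97 CPM in control cells with SOX10. The SOX10 effect in the knockout lines was thus a log2 fold change of 2.76 (SE 0.12, adjusted p = 1.81e-22). ZNF439, beside ZNF69 in sub-cluster 3, had 1.60, 1.44 and 1.53 CPM with guide 1 and 1.44, 1.71 and 1.09 CPM with guide 2, against 2.53, 2.89 and 3.23 CPM in control cells (log2 fold change −0.98, adjusted p = 8.32e-10). ZNF69 itself had 3.10 to 4.49 CPM in the knockout libraries, against 6.72 to 6.81 CPM in control libraries (−0.81, adjusted p = 1.61e-12). ZNF160, of sub-cluster 9, averaged a log2 fold change of −0.48 and ZNF566, of sub-cluster 6, one of −0.56, and both passed.

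ZNF114, which stands alone at chr19:48270102-48287608 between sub-clusters 8 and 9, changed most among those that rose. It had 3.44, 3.37 and 3.55 CPM with guide 1 and 3.18, 4.17 and 3.33 CPM with guide 2, against 0.313, 0.222 and 0.154 CPM in control cells. These control levels rest on 21, 15 and 10 counts. The log2 fold change was 3.92 (SE 0.18, adjusted p = 9.88e-22), and no libraries overlapped. ZNF792, ZNF888, ZNF552, ZNF600 and ZNF681 rose by log2 fold changes of 0.58, 0.40, 0.35, 0.33 and 0.26.

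Within SOX10-overexpressing cells the knockout comparison had 63 genes higher and 41 lower, against 28.2% and 26.7% of all genes tested, or 55% in all. With library-size scaling 119 were higher and 14 lower, and with the GC correction 49 were higher and 60 lower. The balance of directions thus rested on the setting and is not read as a result about these genes. From TMM to library-size scaling the median log2 fold change went from 0.17 to 0.31 in sub-cluster 4. It went from 0.05 to 0.20 in sub-cluster 9 and from −0.01 to 0.13 in sub-cluster 10. The shares of all genes given here are those of TMM scaling without the correction. The counts under the other settings are therefore not read against them. ZNF114 remained higher, with 5.01, 5.83 and 5.73 CPM in guide 1 and 7.20, 6.29 and 7.54 CPM in guide 2, against 0.573, 0.577 and 0.927 CPM in control cells with SOX10 (log2 fold change 3.17, adjusted p = 1.79e-22). ZNF583 (0.54) and ZNF525 (0.62) were higher and ZNF333 (−0.55), ZNF627 (−0.55) and ZNF835 (−1.26) were lower. The knockout comparisons with and without SOX10 share no library. Between them, 18 genes were higher in both, 34 lower in both and 11 lower without SOX10 and higher with it, ZNF69 among these 11. Such overlaps were not set against those among all genes.

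Between the lines of guide 2 and guide 1, 7 of 243 genes were higher and 5 lower in guide 2, against 2.65% and 6.09% of all genes tested, or 8.74% in all. With the GC correction 25 genes were called, 19 higher and 6 lower, so the count rests on that setting. The shares of all genes given are without the correction. ZNF587B averaged 39.7 CPM in the guide 2 line and 33.8 CPM in the guide 1 line (log2 fold change 0.23, adjusted p = 8.29e-04). ZNF536 averaged 0.369 CPM in the guide 2 line and 0.706 CPM in the guide 1 line (−0.91, adjusted p = 0.00524), a call that was lost without guide 1 replicate 1 (adjusted p = 0.11).

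The partners through which KRAB proteins repress were described from a list of 18 genes. In the knockout 14 fell and 1 rose with TMM scaling, against 29.5% lower and 28.6% higher of all genes, while library-size scaling gave 6 lower and 5 higher, against 16.8% and 43.3%. TRIM28 had 463 to 488 CPM with guide 1 and 429 to 509 CPM with guide 2, against 651 to 659 CPM in control cells (log2 fold change −0.46, adjusted p = 1.70e-06), and −0.30 with library-size scaling. CBX3, an HP1 protein, averaged 527 and 523 CPM in the knockout lines and 712 CPM in control cells, and UHRF1, which guides DNA methylation to replicated DNA, averaged 183 and 179 CPM against 270 CPM. HDAC1, a histone deacetylase, rose, with 261 and 268 CPM against 227 CPM. With SOX10 in knockout cells 6 of the 18 rose and 3 fell, against 28.1% and 28.1% of all genes. In control cells SOX10 raised 1 and lowered 6, against 17.3% and 17.2%. CBX5, another HP1 protein, averaged 349 and 380 CPM with SOX10 and 272 and 266 CPM without (0.44, adjusted p = 2.98e-10), whereas in control cells it averaged 209 CPM with SOX10 and 309 CPM without (−0.57, adjusted p = 3.56e-09). TRIM28 did not pass with SOX10 in knockout cells (−0.04, adjusted p = 0.51).

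The genes share sequence, and their counts are uncertain to that extent. More than 10% of the 75-base windows of the transcript recurred in another gene for 38 of the 246, and 131 genes overlapped an annotated gene on the opposite strand. Of 65 tested genes with few shared windows and no overlapping gene, a set chosen after the values were seen, SOX10 in knockout cells raised 48 and lowered 2, and knockout raised 4 and lowered 32 with TMM scaling.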

How the data were processed

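The deposited file holds unnormalised counts of reads for each gene in 18 libraries (KAPA stranded mRNA libraries, per the labels' protocols). HISAT2, HTSeq and hg38 are named in the submitters' processing notes. No source used here gives versions, annotation or the strand setting, so reads of overlapping genes could not be told apart. Gene names, positions and transcripts came from GENCODE 29.

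Counts were fitted in R 4.3.3 with edgeR 4.0.16: filterByExpr, TMM factors, 6 group means and a robust quasi-likelihood F test, two-sided, with Benjamini-Hochberg adjustment over 21060 genes and a threshold of 0.05. In a test on simulated data the method recovered fewer of the genes changed 2-fold than a first pass mark asked for, and that mark was then lowered. Alternatives are in the closing section. The KRAB core was called where at least 7 of 10 consensus residues, or at least 5 with a tryptophan 9 to 12 residues before, stood in the first 250 residues. This rule was widened from a narrower pattern that missed known members, without use of expression. Named genes were the called genes with the largest changes in each comparison (for the knockout, with agreement of the guides and no overlap), the highest per kilobase and genes of known role. The members and lists were chosen with earlier results of these data known.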

Additional observations from a re-analysis of the deposited data

Results flagged for a closer look

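The SOX10 effect differed between knockout and control cells, by the test of that difference itself, for these genes among those named by size. The interaction, on the log2 scale, was 2.33 for ZNF536 and 1.11 for ZNF69. For ZNF471 it was 0.93, with a mean SOX10 effect of 1.15 in knockout and 0.23 in control cells. For ZNF135 it was 1.93, but its libraries held 1 to 33 counts, and it did not pass without any 1 of 5 libraries (guide 2 replicate 1, guide 2 with SOX10 replicate 2, control replicate 1, and control with SOX10 replicates 1 and 2). ZNF114 had −0.74 and did not pass without control replicate 2 or 3 or without control with SOX10 replicate 3. ZNF324B had −0.30, ZNF556 −0.29 and ZNF865 −0.23.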

How the results depend on the processing

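The number of genes called in each comparison stayed within 1.5 times under every alternative except for guide 2 against guide 1, where 12 became 25 with the GC correction and 27 with the GC correction and replicate block. Leaving out 1 library in turn gave 115 to 147 called genes for the knockout, 86 to 104 for the knockout within SOX10-overexpressing cells, 55 to 65 for SOX10 in control cells, 182 to 200 for SOX10 in knockout cells, 79 to 113 for the interaction and 9 to 15 between guides. The highest counts for the knockout, SOX10 in knockout cells, the interaction and the guides came without guide 2 replicate 2. The interaction had 1 gene with a negative sign without control replicate 2. Between guides, 2 genes were lower without guide 2 replicate 3 and 9 without guide 2 replicate 2.

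Library-size scaling turned the knockout sign of ZNF146 (0.0519), ZNF317 (0.0599), ZNF43 (0.0830), ZNF561 (0.14) and ZNF93 (0.03). In the same edgeR test, ZNF146, ZNF43 and ZNF561 passed with the turned sign (adjusted p = 0.038, 0.041 and 3.3e-04). ZNF317 and ZNF93 did not pass (adjusted p = 0.079 and 0.62). The GC correction turned the SOX10 sign in knockout cells of ZNF146 (−0.0823, and −0.0819 with the block) and ZNF561 (−0.0067, and −0.0067 with the block). ZNF146 passed with the turned sign in the edgeR test (adjusted p = 1.1e-04, and 3.4e-05 with the block). ZNF561 did not pass (adjusted p = 0.83, and 0.82 with the block). The cause was not tested. Of 95 named values, 56 kept direction and call in every alternative.

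Deviations of same-numbered replicates were at most weakly correlated (−0.030 to 0.071, none over 0.1), but 11 of 18 libraries correlated best with their own number. These values do not settle whether the numbers pair the samples. With the replicate block 138, 105, 78, 194, 99 and 15 genes were called in the order above. The interaction uses all groups, so a fit of only the groups compared was not run for it. Counts of 1 to 33 limit ZNF135 and ZNF610.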
